A study of Mus musculus with 18 samples.

Results

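Ddx4 and Dazl are 2 genes that mark germ cells, and they were described here in all 18 libraries of a study of mouse oocytes grown in vivo or in vitro, as 2 of the 28252 genes in the normalized table. They were found by gene symbol in that table and by the same Ensembl identifier among the 53715 genes of the count table. Ddx4 was chosen from its readout, because it was higher in metaphase oocytes grown in vitro, so that contrast is a description for both genes and carries no test.

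All mice were offspring of a C57Bl/6j x CBA/J cross, and each of the 6 groups had 3 libraries. Primordial and primary follicle oocytes were taken by laser capture microdissection (LCM) from ovaries of 14-day-old mice that were not cultured (in vivo) or from ovaries of 7-day-old mice cultured for 7 days (in vitro). Metaphase II (MII) oocytes, the mature eggs, came from superovulated adult mice (in vivo) or from follicles that grew in culture for 12 days after the 7 days of ovary culture (in vitro), with 10 oocytes pooled in a library. The in vitro groups differ from the in vivo groups in the whole growth condition and in the age of the mice at removal. For LCM material this was 7 against 14 days, and for MII material 7 days against adult mice. RNA of LCM oocytes was amplified and prepared with other kits than RNA of MII oocytes, so stage and library preparation cannot be told apart between these kinds, and they were fitted separately. Nothing says that the 3 libraries of a group came from separate animals or cultures, and p-values measure the spread between these libraries only.

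Ddx4 (also called Vasa) encodes a DEAD-box RNA helicase of germ cells. It is a core protein of nuage, the cytoplasmic granule in which germ cells process small RNAs of transposons (piRNAs). Dazl encodes a protein of the DAZ family that binds germ cell mRNAs, mostly in their untranslated ends, and recruits translation factors, and in oocytes it takes part in the translation of stored maternal mRNAs during maturation. Both proteins are standard markers of oocytes in ovary sections.

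In GENCODE M21 on build GRCm38, Ddx4 (ENSMUSG00000021758) lies on chromosome 13 from 112598333 to 112652475 on the minus strand, with up to 22 exons in a transcript. Dazl (ENSMUSG00000010592) lies on chromosome 17 from 50279395 to 50293636 on the minus strand, with up to 11 exons. No annotated gene overlaps either one. The RefSeq promoter windows on GRCm38.p6 run from 250 bases before the start to 50 after it. They are shown so that a reader can compare the start regions directly, and their part in RNA levels was not tested. They lie at chr13:112652261-112652560 for Ddx4 and at chr17:50293571-50293870 for Dazl, both read on the minus strand, and capitals mark CCAAT or its reverse complement ATTGG.
Ddx4: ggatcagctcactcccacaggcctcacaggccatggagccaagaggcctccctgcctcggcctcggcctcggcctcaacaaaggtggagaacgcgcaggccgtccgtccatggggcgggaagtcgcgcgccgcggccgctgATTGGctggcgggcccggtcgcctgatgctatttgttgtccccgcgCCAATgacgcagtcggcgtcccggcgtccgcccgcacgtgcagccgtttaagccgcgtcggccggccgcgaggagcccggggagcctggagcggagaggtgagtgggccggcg
Dazl: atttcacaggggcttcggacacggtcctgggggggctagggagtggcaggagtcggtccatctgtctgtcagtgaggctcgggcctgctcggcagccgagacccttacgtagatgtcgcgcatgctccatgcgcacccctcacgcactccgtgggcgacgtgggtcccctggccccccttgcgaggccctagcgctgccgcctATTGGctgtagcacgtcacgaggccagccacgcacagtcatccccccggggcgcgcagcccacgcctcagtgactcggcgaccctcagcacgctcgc
The Ddx4 window held 38 CpG dinucleotides and a GC content of 72.0%, and the Dazl window held 28 and 68.7%, against medians of 7 and 52.7% over 32851 promoter windows. At least as many CpG were present in 4.95% of all windows for Ddx4 and in 14.2% for Dazl. A reverse CCAAT began 109 bases and a forward one 63 bases before the start of Ddx4, and a reverse one began 47 bases before the start of Dazl. CCAAT on either strand was present in 37.4% of all windows, the Ddx4 window also held 1 CACGTG, a motif present in 7.15% of all windows, and the Dazl window held none. The motifs were searched for after the sequences had been read, and a match is a string of letters, not a site.

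Library totals were between 15149564 and 29205503 counts in LCM oocytes and between 7334817 and 9978830 in MII oocytes, and 3 counts, taken as the floor, equal at most 0.409 counts per 1000000 counts (CPM). LCM libraries had a read for 6048 to 13755 genes and MII libraries for 14512 to 18239 genes. The summed level of 11 oocyte markers (Gdf9, Bmp15 and the zona pellucida genes among them) was 28.9 to 692 CPM in LCM libraries and 8024 to 15967 CPM in MII libraries. Markers of granulosa cells (11 genes) summed to 107 to 3348 CPM in LCM libraries and to 68.3 to 154 CPM in MII libraries, and 7 stroma markers to 961 to 34025 CPM and 0.336 to 11.0 CPM. The 6 immune markers summed to 0 to 19.99 CPM and 16.0 to 34.9 CPM. Granulosa and stroma markers were thus measured in every LCM library. In such samples fewer oocytes and less RNA per oocyte cannot be told apart.

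Ddx4 was lower in all 3 libraries of MII oocytes grown in vivo than in all 3 of those grown in vitro. In transcripts per 1000000 transcripts (TPM), which compare levels between genes per length, it was 34.8, 13.4 and 23.9 in the 3 in vivo libraries and 217, 368 and 271 in the 3 in vitro libraries. The groups did not overlap, and the lowest in vitro library stood 6.69-fold above the highest in vivo one on the CPM scale. The raw counts behind these levels were 373, 120 and 244 in vivo and 2769, 3906 and 2661 in vitro, far above the floor. As scaled counts, Ddx4 was 28.0 ± 15.3 CPM in vivo and 329.5 ± 36.2 CPM in vitro (SD, n = 3 each), an 11.8-fold ratio of means and a fitted log2 difference of 3.55.

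Dazl was high in both MII groups. Its TPM was 499, 756 and 782 in vivo and 555, 638 and 629 in vitro. The groups overlapped: Dazl was 740.4 ± 100.8 CPM in vivo and 700.6 ± 89.7 CPM in vitro (SD, n = 3 each), a ratio of means of 0.946 and a fitted log2 difference of -0.08. The Dazl level was thus above the Ddx4 level in each of the 6 MII libraries, and the gap was narrower in vitro.

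**Figure D1:**
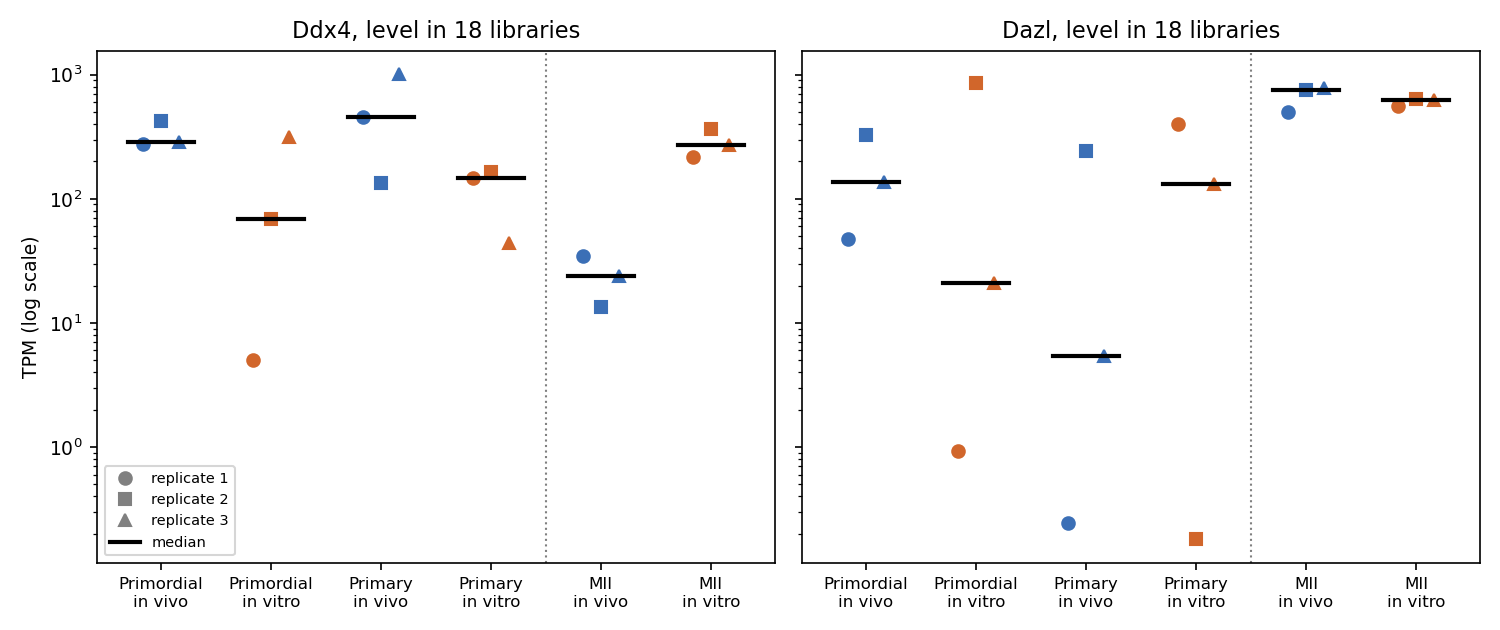
TPM of Ddx4 (left) and Dazl (right) in each of the 18 libraries on a log scale, by group, with the marker shape giving the replicate and the bar the median. Left of the dotted line are LCM oocytes and right of it MII oocytes, blue is in vivo and orange in vitro. Ddx4 in MII oocytes ran from 13.4 to 34.8 TPM in vivo and from 217 to 368 TPM in vitro, while Dazl ran from 0.180 to 855 TPM in LCM oocytes.

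Across the table, 60 of 17144 genes tested in MII oocytes were called (edgeR quasi-likelihood test, Benjamini-Hochberg adjusted p under 0.05 and at least 2-fold), which is 0.350% of genes, and 49 of them were higher in vitro. That count was 378 without MII in vivo replicate 1 and 11 without MII in vitro replicate 3. All in vitro libraries lay above all in vivo libraries for 9.37% of genes. Because the MII contrast chose Ddx4, these shares stand here only for scale and nothing is read from them for Ddx4.

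The ratio of Dazl to Ddx4 TPM within a library shows the shift without the library total. It was 14.3, 56.6 and 32.7 in the MII in vivo libraries and 2.55, 1.73 and 2.32 in the MII in vitro libraries. In LCM oocytes this ratio ranged from 0.000539 to 12.6, and it was 0.171, 0.783 and 0.473 in the primordial in vivo libraries, the LCM group in which it varied least. On the log2 scale the ratio was -0.90 on average in vitro and -1.33 in vivo for primordial oocytes, a difference of 0.43 (two-sided exact permutation test, p = 0.9, n = 3 each). For primary oocytes the averages were -2.26 and -5.84, a difference of 3.58 (exact permutation test, p = 0.5). Both adjusted p were 0.9 over these 2 exact tests, and with 3 libraries against 3 the smallest p possible was 0.1. The TPM of the 2 genes imply a length of Ddx4 that is 1.02 times that of Dazl, whereas exon lengths in GENCODE M21 would give 0.789 times. Other lengths would move these ratios by one common factor in all libraries.

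**Figure D2:**
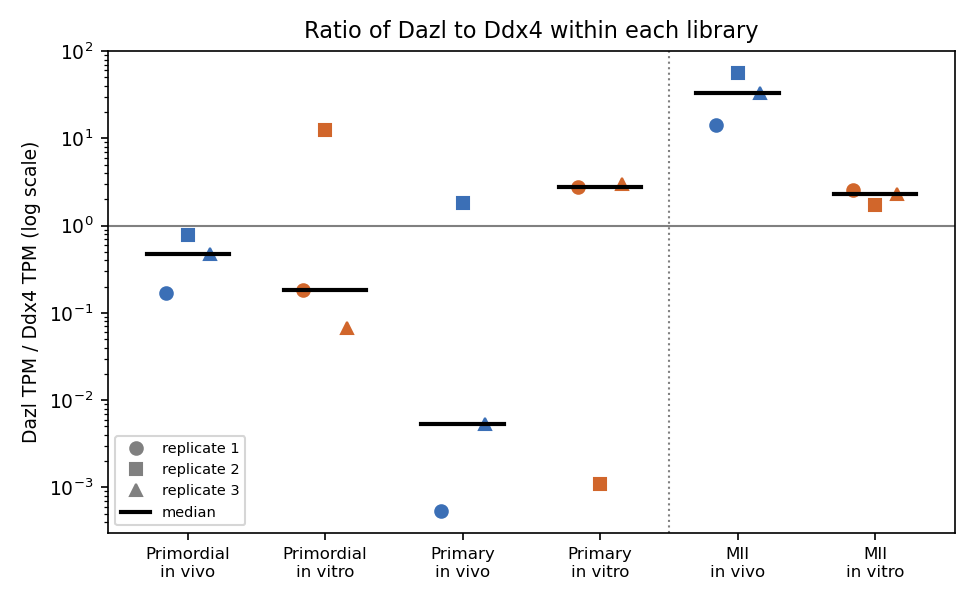
Ratio of Dazl TPM to Ddx4 TPM in each library on a log scale, with the marker shape giving the replicate and the bar the median of a group. The 3 MII in vivo libraries lie between 14.3 and 56.6 and the 3 MII in vitro libraries between 1.73 and 2.55, while the LCM libraries lie between 0.000539 and 12.6.

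In LCM oocytes the question was whether culture or follicle stage moved either gene, and this was tested, since the choice of members did not use these libraries. Neither gene was called in any of 5 comparisons, and the in vivo and in vitro groups and the stages overlapped for both genes. Ddx4 in primordial oocytes was 274, 421 and 286 TPM in vivo and 5.06, 68.1 and 315 TPM in vitro. The in vivo libraries were close to each other, and of the in vitro libraries one was at their level, one was lower and one was far lower. Ddx4 in primary oocytes was 453, 134 and 1011 TPM in vivo and 146, 163 and 44.3 TPM in vitro. The lowest in vivo library lay between the in vitro ones.

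Dazl spread over far more than Ddx4 in the LCM libraries. In primordial oocytes it was 47.0, 329 and 135 TPM in vivo and 0.937, 855 and 21.1 TPM in vitro. In primary oocytes it was 0.244, 244 and 5.44 TPM in vivo and 404, 0.180 and 131 TPM in vitro. Each of the groups other than primordial in vivo thus held a library with almost no Dazl and a library with a high level, and the raw counts in these extremes ran from 4 and 5 counts up to 21420 counts. The ratio of highest to lowest CPM within a group was 6.23 for primordial in vivo, 847 for primordial in vitro, 719 for primary in vivo and 1546 for primary in vitro, against 1.28 in both MII groups. For Ddx4 it was 1.36, 57.1, 7.15 and 4.82 in the LCM groups and 3.10 and 1.24 in the MII groups.

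Set beside genes of like level, the spread differed between the genes and groups. Genes of like level had a mean within 2-fold of the member in the same group. In primordial in vivo their median SD of log2 CPM was 1.93, where Ddx4 had 0.26, and 97.9% of 1340 such genes varied more. For Ddx4 this share was 64.7% in primordial in vitro, 67.2% in primary in vivo and 53.7% in primary in vitro. In MII oocytes it was 23.7% in vivo and 81.1% in vitro. In primary in vitro the SD of Dazl was 5.40 against a median of 1.13 for 2003 genes of like level, and 3.79% of them varied more. In primordial in vitro it was 4.81 against 2.77 (33.02% varied more), and in primary in vivo 4.59 against 5.06 (57.5% varied more). The libraries with 4 and 5 Dazl counts (primary in vitro replicate 2 and primary in vivo replicate 1) had oocyte marker sums of 255 and 307 CPM, and that of primordial in vitro replicate 2, with the most Dazl, was 692 CPM. The Dazl level did not follow the order of the marker sums. The primordial in vivo libraries had lower sums, 28.9 to 72.2 CPM, with 47.0 to 329 TPM of Dazl. Primordial in vivo replicate 3 had the lowest marker sum, 28.9 CPM, with 135 TPM of Dazl. Primary in vivo replicate 3 had 370 CPM with 5.44 TPM of Dazl. The part of oocyte content in the Dazl levels was not tested.

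In primordial oocytes the in vitro minus in vivo log2 difference was -1.31 for Ddx4 (95% interval -5.09 to 2.47, adjusted p = 0.892) and 0.86 for Dazl (-3.44 to 5.16, adjusted p = 1) by the edgeR quasi-likelihood fit. The sign for Dazl rested on 1 library, since without primordial in vitro replicate 2 it was -3.88. In primary oocytes it was -2.38 for Ddx4 (-6.29 to 1.53, adjusted p = 0.775) and 0.76 for Dazl (-3.53 to 5.05, adjusted p = 1), and the latter was -0.57 without primary in vitro replicate 1 (edgeR). The calls over all 15317 genes tested were 5 in primordial oocytes, or 0.0326%, and 0 in primary oocytes, or 0%. Neither member belonged to them, which is no measure of stability at this spread. Groups did not overlap for 6.59% and 9.99% of genes, and for neither member.

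The difference of these effects between primary and primordial oocytes was -1.07 for Ddx4 (-6.34 to 4.201) and -0.10 for Dazl (-6.14 to 5.93), both with an adjusted p of 1 in edgeR, where 16 genes, or 0.104%, were called. Without primordial in vitro replicate 3 the Ddx4 value was 0.71, and the Dazl value was above 0 when any 1 of 5 libraries was left out: 0.34 without primordial in vivo replicate 1, 4.64 without primordial in vitro replicate 2, 4.81 without primary in vivo replicate 2, 0.48 without primary in vitro replicate 2 and 0.04 without primary in vitro replicate 3.

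Primary against primordial oocytes in vivo, Ddx4 had a log2 difference of 0.75 (-2.99 to 4.48, adjusted p = 0.980) and Dazl one of -1.06 (-5.37 to 3.26, adjusted p = 0.953) in edgeR. In vitro the values were -0.32 for Ddx4 (-4.04 to 3.40, adjusted p = 1) and -1.16 for Dazl (-5.48 to 3.16, adjusted p = 0.997), and both changed sign without single libraries. Ddx4 was at 1.498 without primordial in vitro replicate 3 and at 0.09 without primary in vitro replicate 3, and Dazl at 3.58 without primordial in vitro replicate 2. The genes called were 8, or 0.0522%, in vivo and 0, or 0%, in vitro. Groups did not overlap for 6.39% and 11.2% of genes, and for neither member. With 95% intervals that run over 7 log2 units, a change of several fold in either direction was not detectable. In the comparisons with 0 calls, 1479 genes (culture of primary oocytes) and 1673 genes (stage in vitro) had an unadjusted p under 0.05, and DESeq2 called 244 and 454 genes.

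**Figure D3:**
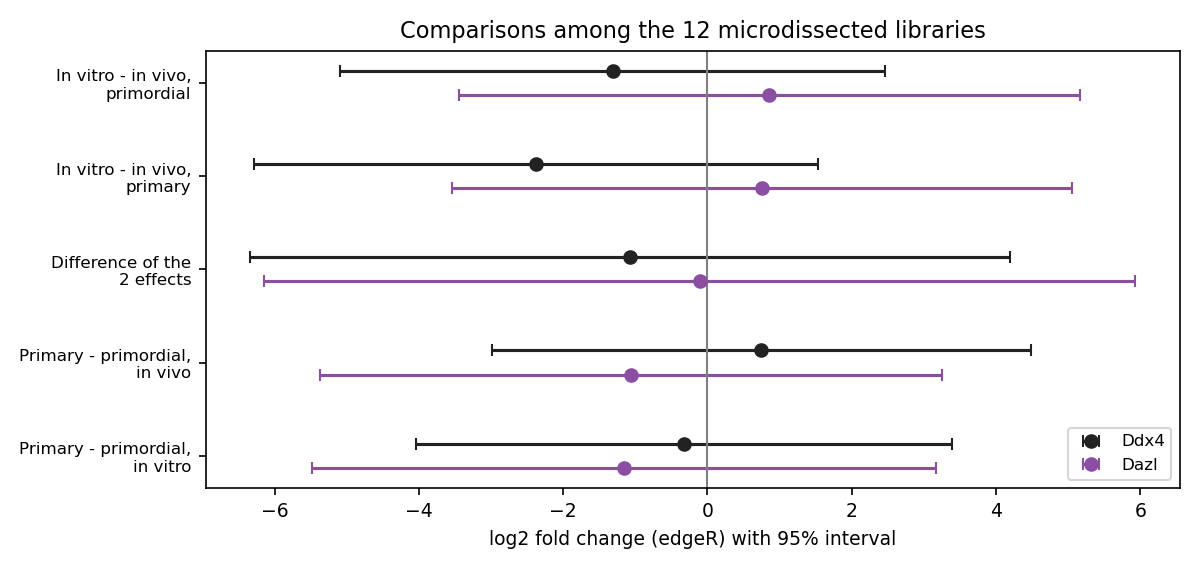
Log2 fold change of Ddx4 (black) and Dazl (purple) in the 5 comparisons of the 12 LCM libraries, with 95% intervals of the edgeR fit. All 10 intervals include 0, and the narrowest, that of Ddx4 for the stages in vitro, runs from -4.04 to 3.40.

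By median TPM, Ddx4 stood in the order primary in vivo, primordial in vivo, MII in vitro, primary in vitro, primordial in vitro and MII in vivo. Neighbours in this order overlapped, other than MII in vitro (lowest library 217 TPM) and primary in vitro (highest 163 TPM). Dazl stood in the order MII in vivo, MII in vitro, primordial in vivo, primary in vitro, primordial in vitro and primary in vivo, and only MII in vitro (lowest 555 TPM) and primordial in vivo (highest 329 TPM) did not overlap. LCM and MII levels come from different preparations, so these orders are descriptions.

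No shared rise or fall of the 2 genes was detectable in LCM oocytes. Over 12 libraries the correlation of log2 CPM was r = -0.03 (permutation p = 0.939) and rho = -0.24 (permutation p = 0.44), and r was -0.52 without the 2 libraries farthest from the median of Ddx4. It was 0.63 in the 6 primordial libraries (exact permutation p = 0.193) and -0.61 in the 6 primary libraries (exact permutation p = 0.207), with rho of 0.37 and -0.60 and exact permutation p of 0.497 and 0.242. Adjusted over the 3 correlations, the permutation p of r were 0.939, 0.31 and 0.31.

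The genes with a pattern most like Ddx4, by r of log2 CPM over 18 libraries centred within LCM and within MII, were Ryr3, a calcium release channel (r = 0.80), Otub1, a deubiquitinase (0.79), Prmt5, an arginine methyltransferase (0.73), Nup160, a nuclear pore protein (0.71), and Sorcs3, a sorting receptor (0.70). For these genes r was 0.79 to 0.86 within LCM libraries and 0.65 to 0.89 within MII oocytes. The MII part holds the contrast that chose Ddx4, so this likeness is only a description. Prmt5 was 43.3 CPM in MII oocytes in vivo and 56.3 CPM in vitro. For Dazl they were Ythdc2, an RNA helicase of meiosis (0.89), Akap10 (0.89), Pla2g6 (0.88), Cdc16, a subunit of the anaphase promoting complex (0.88), and Ikzf5 (0.88). Their r within MII oocytes was between -0.73 and -0.04, so the likeness to Dazl rests on the LCM libraries. The median r over 8039 genes was -0.01 for Ddx4 and 0.20 for Dazl. The points share libraries and depth.

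Of the partners of Ddx4 in nuage and the piRNA pathway, none was called in MII oocytes by edgeR. Over all genes 0.350% were called, so 0 calls in a short list are no measure of stability. In a list of 16 genes 14 were tested, 0 were called, 8 had a log2 difference above 0 and 6 below 0, and their median was 0.18 against 0.04 for all genes. Mael, a nuage protein that represses transposons, was 18.5 ± 10.3 TPM in vivo and 18.01 ± 13.96 TPM in vitro (mean ± SD, n = 3 each, as for the genes that follow) with a fitted log2 difference of -0.06. Asz1, a mitochondrial partner of the piRNA machinery, was 247 ± 96.7 TPM and 138 ± 29.3 TPM (-0.77). The highest difference, 6.19, belonged to Piwil2, a Piwi protein, and rests on a level of 0 in all 3 in vivo libraries and 0.46 TPM in vitro, so it is no measure of size, and it was named after its values were seen.

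In 20 germ cell RNA-binding regulators 17 were tested in MII oocytes, 8 lay above 0 and 9 below, and the median was -0.27. Ybx2, which packages stored mRNA, was 4.93, 46.8 and 28.9 TPM in vivo and 10.3 ± 1.72 TPM in vitro (-1.28). Pabpc1, the poly(A) binding protein, was 4.61 ± 0.854 TPM and 5.31 ± 3.49 TPM (0.38). Among 3 mRNAs that Dazl protein binds, all 3 lay above 0. Tex19.1 was 379 ± 238 TPM in vivo and 494 ± 155 TPM in vitro (0.33), and Tpx2, a spindle assembly factor, 135 ± 53.2 TPM and 166 ± 63.2 TPM (0.26). Sycp3, a protein of the synaptonemal complex, had the highest difference of the 3, with 70.9 ± 29.1 TPM and 179.6 ± 92.6 TPM (1.37). It was named after its values were seen, and its groups overlapped. Among 12 other DEAD-box helicases 8 lay above 0 and 4 below, with a median of 0.12. Ddx3x was 362 ± 95.2 TPM in vivo and 318 ± 151 TPM in vitro (-0.23), and Ddx5 144 ± 53.6 TPM and 293 ± 73.8 TPM (1.01). Ddx5 was not called in the main fit (edgeR adjusted p = 0.403). It was called without MII in vivo replicate 1, a fit that called 378 genes over the whole table against 60 in the main fit.

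**Figure D4:**
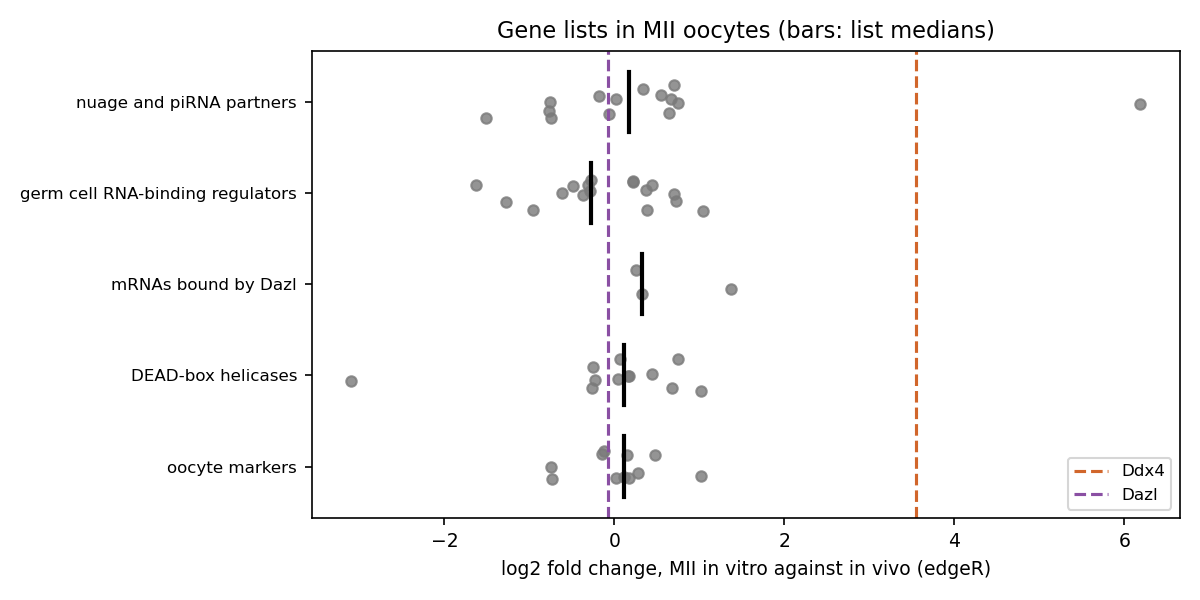
Log2 fold change of MII in vitro against in vivo for the tested genes of 5 lists (grey points, jittered vertically) with each list's median (bar), and dashed lines for Ddx4 (3.55) and Dazl (-0.08). Ddx4 was chosen because it was higher in this contrast, so its place among the points is no result. The highest point is the low-count Piwil2 at 6.19.

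Over these 4 lists 0 of 46 genes were called in MII oocytes by edgeR, against 0.350% of all genes tested. An unadjusted p under 0.05 was reached by 6 of them, against 10.2% of all genes tested, and DESeq2 called 0, against 2.28% of all genes to which it gave an adjusted p. In LCM oocytes 0 of 48 genes were called by edgeR in each of the 5 comparisons, against 0% to 0.104% of all genes. An unadjusted p under 0.05 was reached by 2 to 7 of them. Over all genes that share was 11.7% for culture of primordial oocytes, 9.66% for culture of primary oocytes, 11.5% for the difference of these effects, 11.2% for stage in vivo and 10.9% for stage in vitro. DESeq2 called 4 of 38 list genes with an adjusted p in primordial culture, against 9.30% of all genes, and 1 of 37 in primary culture, against 2.86%. It called 2 of 38 for the difference of effects (6.24% of all genes), 2 of 38 for stage in vivo (6.42%) and 1 of 37 for stage in vitro (5.32%).

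In primordial oocytes 11 of 15 nuage genes tested lay below 0 in vitro, with a median log2 difference of -3.38 against 0 for all genes. That median is the value of Henmt1, named after its values were seen. Henmt1 had 0, 0 and 3 counts in vivo and 0, 0 and 0 in vitro, so this median is no measure of size. In primary oocytes 10 of 15 nuage genes lay below 0, with a median of -1.23 against 0.44. The regulators had medians of -0.08 and -0.69, the DEAD-box helicases 0.09 and -0.19, and the 3 mRNAs bound by Dazl -5.55 and -2.07. The value of -2.07 is that of Sycp3, with 6, 81 and 0 counts in vivo and 5, 0 and 22 in vitro. It thus rests on 1 in vivo library. Of the genes named here none was called by edgeR in these comparisons, where 0.0326% (primordial) and 0% (primary) of all genes were called.

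Mael in primordial oocytes was 308, 634 and 3.52 TPM in vivo and 1.47, 248 and 225 TPM in vitro, so the groups overlapped. In primary oocytes it was 1494, 172 and 26.5 TPM in vivo and 193, 32.1 and 39.1 TPM in vitro, and the in vivo mean of 564 TPM fell to 99.0 TPM without replicate 1. Both groups of each stage held high and low libraries of Mael. Ybx2 in primordial oocytes was 583, 2257 and 7297 TPM in vivo and 402, 1719 and 255 TPM in vitro, with an in vivo mean of 3379 TPM that was 1420.1 TPM without replicate 3. In primary oocytes it was 14890 TPM in 1 in vivo library and 1866 and 5425 TPM in the others, and 764, 778 and 687 TPM in vitro, with an in vivo mean of 7393 TPM that was 3645 TPM without replicate 1. The groups of Ybx2 overlapped in primordial and not in primary oocytes. In primary oocytes groups did not overlap for 9.99% of all genes, and Ybx2 was not called (edgeR adjusted p = 0.440).

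Of the mRNAs bound by Dazl, Sycp3 in primordial oocytes was 21.9, 48.4 and 48.4 TPM in vivo and 0, 2.23 and 0 TPM in vitro (log2 difference -5.71), with groups that did not overlap. Groups did not overlap for 6.59% of all genes, and Sycp3 was not called (edgeR adjusted p = 0.517). Tpx2 (-5.55) was 2.21, 1.33 and 254 TPM in vivo and 0, 5.80 and 0.897 TPM in vitro, so its mean rested on in vivo replicate 3. Without it the in vivo mean was 1.77 TPM. Tex19.1 was at most 0.145 TPM in these 6 libraries and at 0 in those grown in vitro, so its fitted difference of -3.31 is no measure of size. The granulosa marker sum was 107 to 1224 CPM in vivo and 846 to 3348 CPM in vitro in primordial libraries. In primary libraries it was 559 to 1186 CPM and 1496 to 2492 CPM. The oocyte marker sum was 28.9 to 72.2 CPM in vivo and 61.2 to 692 CPM in vitro in primordial libraries. In primary libraries it was 144 to 370 CPM and 174 to 255 CPM. The part of cell content in these values was not tested.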

How the data were processed

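Reads were trimmed and aligned by the authors with Trim Galore 0.4.1 and TopHat2 to mm10 and summarised with featureCounts, per the labels' processing notes. The authors deposited raw counts per gene and TPM values per gene, whose columns each sum to 1000000. Counts were tested with edgeR 4.0.16 in R 4.3.3 (quasi-likelihood test, robust, TMM scaling, genes with at least 10 counts in total, Benjamini-Hochberg adjustment), with the 12 LCM libraries in 1 model and the 6 MII libraries in another. A call needs an adjusted p under 0.05 and at least 2-fold. CPM are TMM-scaled, with a prior count of 2 on the log2 scale. Levels between genes are given in TPM. DESeq2 1.42.0 and limma 3.58.1, the latter on log2 TPM, were alternatives. The common biological coefficient of variation was 2.02 in LCM and 0.726 in MII libraries. The fits were tested on simulated data of much smaller spread, which checks the code and says nothing of the power here. The members and gene lists were chosen with earlier results of these data known. Named are Ddx4 and Dazl, per list the 2 genes of highest mean TPM and up to 4 called, and the 5 genes most like each member among genes of at least 1 CPM on average in both kinds of library. Intervals cover the spread between libraries only.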

Additional observations from a re-analysis of the deposited data

How the results depend on the processing

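In the edgeR fits and alternatives run, neither Ddx4 nor Dazl was called in LCM oocytes (smallest adjusted p 0.382, Ddx4 in primary culture by DESeq2). The MII differences were 3.24 to 4.06 for Ddx4 and -0.19 to -0.004 for Dazl without single libraries. Dazl in primordial culture turned to -2.16 (replicate block), -1.96 (limma, log2(TPM + 1)) and -2.27 (limma, log2(TPM + 0.1)). The difference of culture effects turned to 0.71 and 0.78 for Ddx4 (limma), and for Dazl to 0.23 (library size alone), 7.77 (replicate block), 3.63 and 3.93 (limma). The stage difference in vitro turned to 0.38 (replicate block), 1.01 and 1.08 (limma) for Ddx4, and 3.65 (replicate block) and 0.26 (limma, log2(TPM + 1)) for Dazl. The cause was not tested.

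Without single libraries the log2 differences of Ddx4 and Dazl ranged from -3.12 to -0.75 and -3.88 to 1.48 (primordial culture), -2.94 to -1.79 and -0.57 to 5.67 (primary culture), -1.63 to 0.71 and -1.43 to 4.81 (difference of effects), 0.16 to 1.21 and -5.97 to -0.44 (stage in vivo), and -0.89 to 1.498 and -2.49 to 3.58 (stage in vitro).

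Genes called in primordial culture were 5, and 812 in DESeq2, 0 with filterByExpr, without a filter and in both limma fits, 9 with only the 2 groups, 1 with the replicate block, and 0 to 13 without single libraries. In primary culture 0 became 244 (DESeq2), 1 (DESeq2 size factors), 5 (2 groups) and 0 to 4. For the difference of effects 16 became 558, 0 (filterByExpr, replicate block, limma), 1 (no filter) and 0 to 20. For stage in vivo 8 became 561, 3 (2 groups), 0 (filterByExpr, no filter, replicate block, limma) and 0 to 11, and for stage in vitro 0 became 454 and 0 to 2. In MII oocytes 60 became 337 (DESeq2), 263 (no filter), 19 and 23 (limma), and 11 to 378. Same-numbered libraries of different groups correlated at -0.066 to 0.090 (LCM) and -0.024 to 0.016 (MII). Differently numbered LCM libraries correlated at -0.078 to 0.090. The labels do not say whether numbers pair samples, and with 3 libraries per group at this spread these correlations cannot decide it.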
